A study of Homo sapiens with 28 samples.

Results

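RNA of EPC2 cells given IL-13 together with vitamin D was compared with RNA of untreated EPC2 cells, gene by gene. EPC2 is an immortalised human esophageal epithelial cell line. The genes described are those at 1 RPKM or more (reads per kilobase of transcript, scaled to the mapped reads of the library) in either group, 11423 of 23533 genes. Cells received 100 ng/ml IL-13 plus 100 nM vitamin D for 6 h, or nothing, with 3 RNA samples in each group, and 3 further samples each had received IL-13 alone or vitamin D alone for the same time. The tables used here hold 1 RPKM value per group, with the authors' log2 fold changes and p-values, so no spread between samples is at hand. The labels do not say whether the samples of a group were separate cultures. If they were not, the p-values measure technical spread. The form of vitamin D is not given either. A fold change is IL-13 plus vitamin D over untreated throughout, on the log2 scale, unless another pair is named, and a gene is called higher or lower where the authors' adjusted p was under 0.05.

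IL-13 is a type 2 cytokine that binds a receptor of IL4R and IL13RA1, which activates JAK kinases and through them the transcription factor STAT6. In esophageal epithelium it is known for raising the eosinophil chemokine CCL26 and the protease CAPN14, and for lowering genes of squamous differentiation. Vitamin D acts through its nuclear receptor VDR, which binds DNA with the retinoid X receptor and raises CYP24A1, the enzyme that breaks the hormone down. In keratinocytes VDR is also known for its part in differentiation and innate defence.

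Read depth cannot be recovered from 1 RPKM value per group, so the precision of single values is unknown. Summed RPKM was 377254 with both treatments and 388972 in untreated cells, and the 10 most abundant genes held 16.9% and 18.6% of these sums. The cells had the profile of squamous epithelium: 12 of 13 basal and squamous markers were at 1 RPKM or more, with a summed level of 44909 RPKM with both treatments and 51048 RPKM untreated. Of 11 fibroblast markers 2 reached 1 RPKM, of 14 leukocyte markers 1, of 9 endothelial markers 1 and of 6 melanocyte markers 0. Among the leukocyte markers 9, PTPRC included, were listed at 0 in both groups. The 1 that reached 1 RPKM was CD68, at 56.4 RPKM with both treatments and 50.8 RPKM untreated. It was called higher, with a fold change of 0.15 in the authors' deposited table.

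Over these genes 39.3% passed the authors' test, 4487 of the 11422 tested. Of these 2338 were higher with both treatments, 20.5% of those tested, and 2149 were lower, 18.8%. Most changes were small. Of the called genes 3195 changed by less than 0.5 in the authors' deposited table, and the median size of a called change was 0.32. At least 2-fold changes were called for 213 higher genes (1.86%) and 163 lower genes (1.43%). The rises reached further than the falls: 56 genes were at least 4-fold higher and 16 at least 4-fold lower, and 20 were at least 8-fold higher with 0 at least 8-fold lower in the authors' deposited table. The median fold change of all tested genes was 0.02. The RNA came from bulk cells, so fewer cells of a type and less RNA per cell cannot be told apart here or below.

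**Figure D1:**
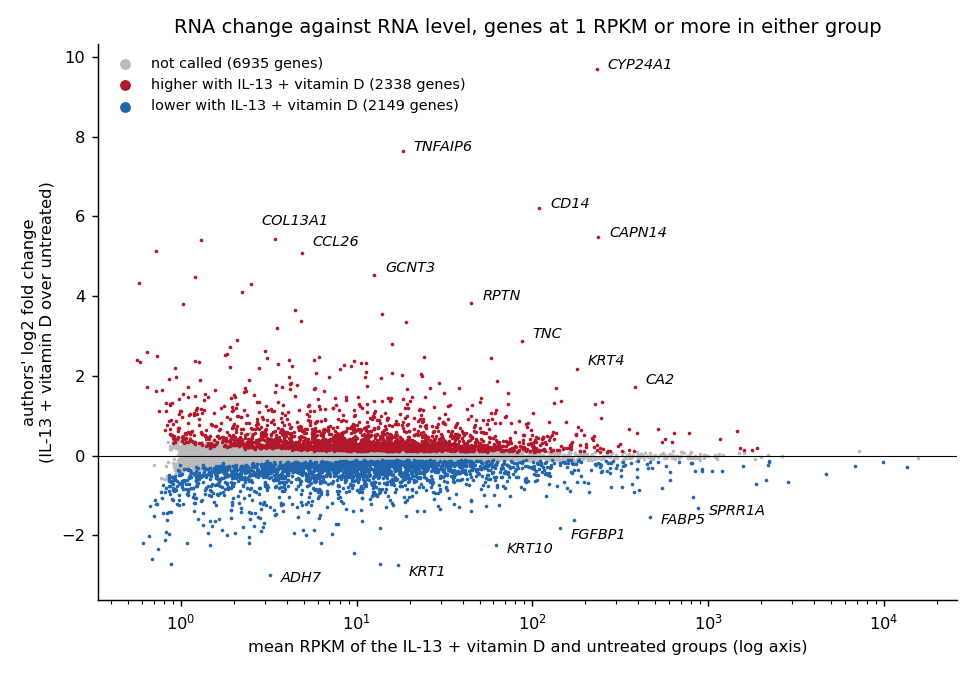
Each point is 1 gene at 1 RPKM or more in either group, placed by its mean RPKM over the IL-13 plus vitamin D and untreated groups (log axis) and by the authors' log2 fold change of IL-13 plus vitamin D over untreated. The 2338 higher genes reach 9.69 (CYP24A1), while the 2149 lower genes reach -2.99 (ADH7).

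The share of genes called varied with level and with the kind of gene. It was 13.1% higher and 21.7% lower among the 1143 genes of lowest mean RPKM (up to 1.84), and 24.4% higher and 22.3% lower among the 1143 of highest mean RPKM (46.2 and above). Among 241 long non-coding RNAs 27 were higher (11.2%) and 53 lower, against 2288 higher (21.1%) and 2055 lower of 10838 protein-coding genes. None of 88 snoRNA genes was called in either direction. By chromosome the share called higher lay between 10.8% on chromosome 19 and 27.3% on chromosome 5.

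The counts of gene lists here and below stand against 20.5% higher and 18.8% lower over all tested genes, and nothing is read from a list whose shares lie near these. Receptors and kinases of the IL-13 pathway had small fold changes. Of 11 measured receptor, JAK and STAT genes 3 were higher and 4 lower. IL4R, the shared receptor subunit, stood at 52.1 RPKM with both treatments, 33.1 with IL-13 alone, 60.8 with vitamin D alone and 38.3 in untreated cells, and its fold change was 0.45 in the authors' deposited table (adjusted p = 3.56e-20). IL13RA1, its partner, was at 23.8 RPKM with both treatments and 27.1 in untreated cells (-0.18, adjusted p = 0.000783 in the authors' deposited table). STAT6 itself was at 24.5 RPKM with both treatments and 30.2 in untreated cells (-0.30, adjusted p = 3.61e-09 in the authors' deposited table). The kinase gene JAK1 had a fold change of 0.10 (adjusted p = 0.0644 in the authors' deposited table). For the decoy receptor gene IL13RA2 it was 0.52 (adjusted p = 0.0808 in the authors' deposited table), and neither gene was called. IL4R was higher and its partner IL13RA1 and STAT6 were lower, and the high IL4R levels stood in the groups given vitamin D.

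Of 16 SOCS genes and STAT phosphatases 4 were higher and 3 lower, shares about equal to the 20.5% and 18.8% over all tested genes. CISH, a STAT-induced feedback inhibitor (chromosome 3, 50643885 to 50649262, hg19), stood at 27.8 RPKM with both treatments, 23.3 with IL-13 alone, 4.24 with vitamin D alone and 3.9 in untreated cells, with a fold change of 2.79 in the authors' deposited table (adjusted p = 2.32e-291). SOCS1, which blocks JAK kinases, was at 18.4 RPKM with both treatments, 15.7 with IL-13 alone, 5.04 with vitamin D alone and 4.18 in untreated cells (2.10 in the authors' deposited table). Both genes were high wherever IL-13 was present. PTPN1, a phosphatase of JAKs, showed the other order, at 45.9 RPKM with both treatments, 27 with IL-13 alone, 48.5 with vitamin D alone and 27.1 in untreated cells (0.76 in the authors' deposited table), with its high values in the groups given vitamin D.

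On the vitamin D side the receptor genes were steady or lower and the catabolic enzyme was far higher. VDR was at 9.74 RPKM with both treatments and 9.12 in untreated cells (fold change 0.10, adjusted p = 0.157 in the authors' deposited table) and did not pass. RXRA, its heterodimer partner, was at 19 RPKM with both treatments and 26 in untreated cells (-0.44 in the authors' deposited table). CYP24A1 (chromosome 20, 52769988 to 52790516, hg19) was at 463 RPKM with both treatments, 0.281 with IL-13 alone, 560.5 with vitamin D alone and 0.476 in untreated cells, the largest fold change of all the genes described, 9.69 in the authors' deposited table (adjusted p listed as 0). With vitamin D alone as the comparator CYP24A1 was lower with both treatments, at -0.31 in the authors' deposited table (adjusted p = 4.01e-17). CYP27B1, the enzyme that activates vitamin D, was at 4.94 RPKM with both treatments, 6.15 with IL-13 alone, 2.24 with vitamin D alone and 2.52 in untreated cells (0.95 in the authors' deposited table), with its high values in the groups given IL-13. Activation and breakdown enzymes were therefore both higher in cells given both treatments. In all, 3 of 14 receptor, partner and metabolism genes were higher and 4 lower.

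The most strongly changed genes fell into sets that can be read from their levels in the single treatments. All 3 comparisons with untreated cells share the same untreated samples, so the levels are given side by side without a comparison of the fold changes. The tables used here hold a test of both treatments against vitamin D alone, and no test of both against IL-13 alone. Over the genes described, 19.9% of 11400 tested were higher and 19.8% lower with both treatments than with vitamin D alone.

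A set of genes was high in both groups given IL-13, the known IL-13 response genes CAPN14 and CCL26 among them. Not all of this set were known beforehand as IL-13 response genes: FAM26E was named for the size of its change in these data. CAPN14, the esophageal calpain (chromosome 2, 31395922 to 31440411, hg19), was at 463 RPKM with both treatments, 358 with IL-13 alone, 14.8 with vitamin D alone and 10.2 in untreated cells, a fold change of 5.48 in the authors' deposited table (adjusted p listed as 0). CCL26, which encodes the eosinophil chemoattractant eotaxin-3, was at 9.73 RPKM with both treatments, 7.85 with IL-13 alone, 0.0173 with vitamin D alone and 0.0189 in untreated cells (5.09, adjusted p = 2.38e-99 in the authors' deposited table). The size for CCL26 is uncertain, because its level without IL-13 lies near 0: adding 0.1 RPKM to both levels gives a log2 ratio of 6.37. TNC, which encodes the matrix protein tenascin-C, was at 153 RPKM with both treatments, 160.1 with IL-13 alone, 19 with vitamin D alone and 20.8 in untreated cells (2.87 in the authors' deposited table), and its levels with both treatments and with IL-13 alone lay close together. Against vitamin D alone, CAPN14 at 4.87, CCL26 at 4.47 and TNC at 2.94 were higher with both treatments in the authors' deposited table. SERPINB4, a serine protease inhibitor gene, was at 34.7 RPKM with both treatments, 100.1 with IL-13 alone, 1.56 with vitamin D alone and 3.28 in untreated cells (3.36 in the authors' deposited table), so its level with IL-13 alone stood above that with both treatments. SERPINB4 has a near-identical neighbour, SERPINB3, and reads may be split between them. FAM26E, of a family of calcium-regulated channels, was at 6.4 RPKM with both treatments, 6.55 with IL-13 alone, 0.362 with vitamin D alone and 0.638 in untreated cells (3.21 in the authors' deposited table). RASL11B, a Ras-like small GTPase gene, was at 8.34 RPKM with both treatments, 4.53 with IL-13 alone, 0.715 with vitamin D alone and 0.585 in untreated cells (3.66 in the authors' deposited table).

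Of 17 listed IL-13 response genes at this level 15 were higher and 2 lower, with a median of 2.47 in the authors' deposited table against 0.02 over all tested genes. The list was drawn from genes already reported to respond to IL-13, so its direction is no independent evidence, and 17 other listed genes were under 1 RPKM in both groups. CDH3, which encodes P-cadherin, was at 325 RPKM with both treatments, 242 with IL-13 alone, 200.1 with vitamin D alone and 167 in untreated cells (0.96 in the authors' deposited table). CTSC, the cathepsin C gene, was at 316 RPKM with both treatments, 326 with IL-13 alone, 113 with vitamin D alone and 138 in untreated cells (1.30 in the authors' deposited table). The 2 lower members were CHI3L1 (0.583 against 1.37 RPKM, -1.10) and SERPINB13 (55.5 against 62.2 RPKM, -0.16 in the authors' deposited table), named here after their values were seen.

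Some listed VDR targets had high levels in both groups given vitamin D. CD14, a co-receptor for bacterial lipopolysaccharide (chromosome 5, 140011313 to 140013286, hg19), was at 216 RPKM with both treatments, 3.67 with IL-13 alone, 132 with vitamin D alone and 2.62 in untreated cells, a fold change of 6.21 in the authors' deposited table (adjusted p listed as 0). Against vitamin D alone CD14 was higher with both treatments, at 0.65 in the authors' deposited table (adjusted p = 1.42e-26). CAMP, which encodes the antimicrobial peptide cathelicidin, was at 3.21 RPKM with both treatments, 0.39 with IL-13 alone, 2.6 with vitamin D alone and 0.363 in untreated cells (2.53 in the authors' deposited table). TXNRD1, a thioredoxin reductase gene, was at 109 RPKM with both treatments, 36.7 with IL-13 alone, 91.9 with vitamin D alone and 36.6 in untreated cells (1.56 in the authors' deposited table). All 3 genes had higher levels with vitamin D alone than with IL-13 alone. Of 32 listed VDR targets 20 were higher and 6 lower, with a median of 0.54 in the authors' deposited table. This list too was drawn from genes known to respond.

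A further set had its highest level only with both treatments. RPTN, which encodes the epidermal matrix protein repetin, was at 84 RPKM with both treatments, 27.4 with IL-13 alone, 12.9 with vitamin D alone and 5.77 in untreated cells (3.82, and 2.62 against vitamin D alone, in the authors' deposited table). GCNT3, a glycosyltransferase gene of mucin-type glycans, was at 24.2 RPKM with both treatments, 5.32 with IL-13 alone, 5.36 with vitamin D alone and 0.969 in untreated cells (4.53, and 2.09 against vitamin D alone, in the authors' deposited table). ADAMTS15, a secreted matrix protease gene, was at 25.6 RPKM with both treatments, 9.75 with IL-13 alone, 10.2 with vitamin D alone and 2.13 in untreated cells (3.55, and 1.27 against vitamin D alone, in the authors' deposited table). SEMA6D, a semaphorin gene, was at 8.85 RPKM with both treatments, 2.13 with IL-13 alone, 4.68 with vitamin D alone and 0.795 in untreated cells (3.39, and 0.86 against vitamin D alone, in the authors' deposited table). In these 4 genes each treatment alone gave an intermediate level. COL13A1, a membrane-spanning collagen gene, was at 6.79 RPKM with both treatments, 0.344 with IL-13 alone, 1.03 with vitamin D alone and 0.108 in untreated cells (5.43, and 2.56 against vitamin D alone, in the authors' deposited table). KCNK3, a potassium channel gene, was at 1.43 RPKM with both treatments, 0.0206 with IL-13 alone, 0.103 with vitamin D alone and 0.0043 in untreated cells; its fold change of 5.12 in the authors' deposited table differs from the 3.88 that the levels give once 0.1 RPKM is added to each. COL13A1 and KCNK3 were under 1.1 RPKM in every group but the one given both. TNFAIP6, which encodes a hyaluronan-binding protein, was at 36.5 RPKM with both treatments, 9.03 with IL-13 alone, 0.0949 with vitamin D alone and 0.0561 in untreated cells (7.63 in the authors' deposited table). Its deposited fold change against vitamin D alone, 1.32, does not match these levels and is not used. Whether these levels exceed those with IL-13 alone beyond the spread between samples was not tested.

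**Figure D2:**
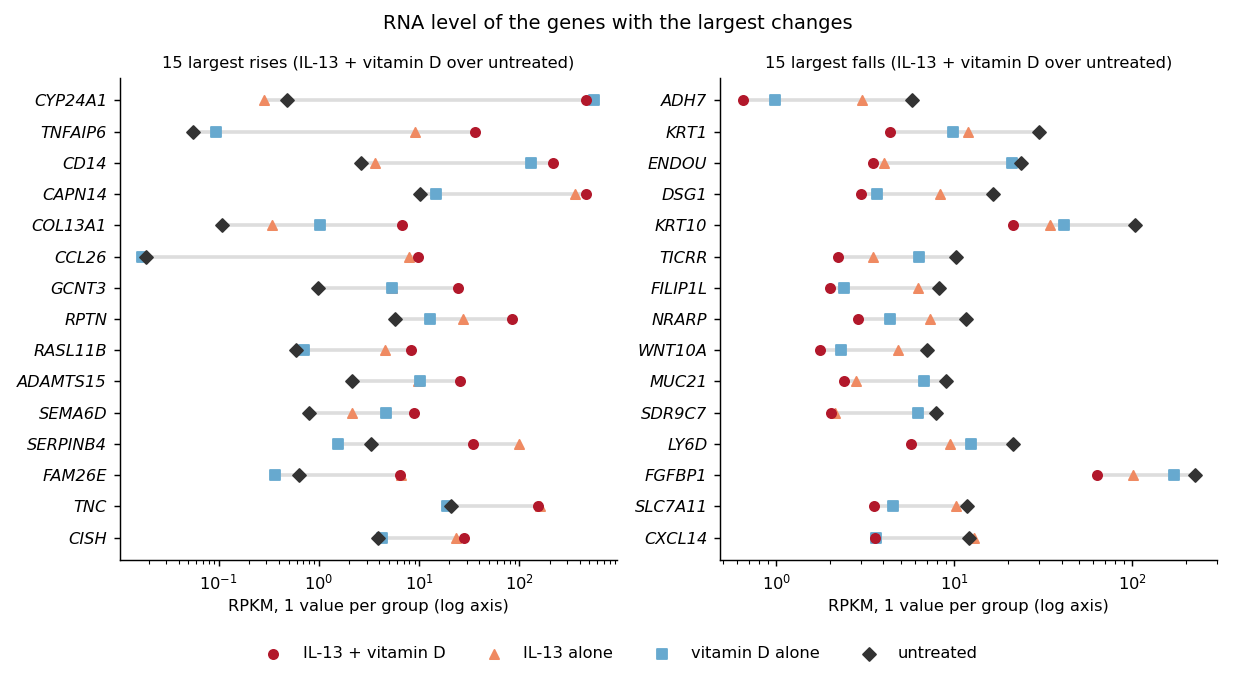
The 15 genes with the largest rises (left) and falls (right) among called genes at 5 RPKM or more in the higher group, with 1 RPKM value for each group on a log axis: IL-13 plus vitamin D, IL-13 alone, vitamin D alone and untreated. CAPN14, CCL26, TNC and CISH are high wherever IL-13 was given, CYP24A1 and CD14 wherever vitamin D was given, and RPTN, GCNT3 and ADAMTS15 are highest with both.

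Among the falls, a set of genes stood at intermediate levels with each treatment alone and lowest with both. KRT1, the suprabasal keratin of cornifying epithelium, was at 4.35 RPKM with both treatments, 11.9 with IL-13 alone, 9.87 with vitamin D alone and 29.9 in untreated cells (-2.74, and -1.19 against vitamin D alone, in the authors' deposited table). KRT10, its partner keratin, was at 21.3 RPKM with both treatments, 34.4 with IL-13 alone, 41.4 with vitamin D alone and 103 in untreated cells (-2.25, and -0.98 against vitamin D alone, in the authors' deposited table). TICRR, which encodes a factor needed to start DNA replication, was at 2.21 RPKM with both treatments, 3.47 with IL-13 alone, 6.37 with vitamin D alone and 10.2 in untreated cells (-2.18 in the authors' deposited table). LY6D, a surface protein of stratified epithelium, was at 5.75 RPKM with both treatments, 9.44 with IL-13 alone, 12.4 with vitamin D alone and 21.3 in untreated cells (-1.81 in the authors' deposited table). FGFBP1, which releases fibroblast growth factors from the matrix, was at 63.4 RPKM with both treatments, 101 with IL-13 alone, 171 with vitamin D alone and 224 in untreated cells (-1.81 in the authors' deposited table).

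Other genes that fell are given by the single treatment whose level stood nearer to the level with both. All of them but CXCL14 also had intermediate levels with each treatment alone and the lowest with both. They are therefore not a set distinct from the genes above. ENDOU, an RNA endonuclease gene, was at 3.49 RPKM with both treatments, 4.03 with IL-13 alone, 21.1 with vitamin D alone and 23.6 in untreated cells (-2.73 in the authors' deposited table). MUC21, a surface mucin gene, was at 2.39 RPKM with both treatments, 2.82 with IL-13 alone, 6.74 with vitamin D alone and 9.02 in untreated cells (-1.87 in the authors' deposited table). SDR9C7, an epidermal dehydrogenase gene, was at 2.04 RPKM with both treatments, 2.13 with IL-13 alone, 6.26 with vitamin D alone and 7.91 in untreated cells (-1.87 in the authors' deposited table). These 3 genes were low in both groups given IL-13. DSG1, which encodes the desmosomal cadherin desmoglein 1, was at 2.98 RPKM with both treatments, 8.34 with IL-13 alone, 3.68 with vitamin D alone and 16.4 in untreated cells (-2.43, and -0.33 against vitamin D alone with adjusted p = 7.72e-06, in the authors' deposited table). ADH7, an alcohol dehydrogenase that oxidises retinol, was at 0.649 RPKM with both treatments, 3.03 with IL-13 alone, 0.989 with vitamin D alone and 5.75 in untreated cells (-2.99, and -0.53 against vitamin D alone with adjusted p = 0.00576, in the authors' deposited table). FILIP1L was at 2 RPKM with both treatments, 6.24 with IL-13 alone, 2.41 with vitamin D alone and 8.24 in untreated cells (-1.997, and -0.29 against vitamin D alone with adjusted p = 0.00884, in the authors' deposited table). WNT10A, a Wnt ligand gene, was at 1.77 RPKM with both treatments, 4.85 with IL-13 alone, 2.32 with vitamin D alone and 7.04 in untreated cells (-1.93, and -0.40 against vitamin D alone with adjusted p = 0.00183, in the authors' deposited table). SLC7A11, the cystine transporter gene, was at 3.55 RPKM with both treatments, 10.2 with IL-13 alone, 4.51 with vitamin D alone and 11.8 in untreated cells (-1.71, and -0.38 against vitamin D alone with adjusted p = 5.78e-08, in the authors' deposited table). CXCL14, an epithelial chemokine gene, was at 3.6 RPKM with both treatments, 12.8 with IL-13 alone, 3.62 with vitamin D alone and 12.1 in untreated cells (-1.70 in the authors' deposited table) and was not called against vitamin D alone (-0.04, adjusted p = 0.784). In these 6 genes the vitamin D groups held the lower levels, and all but CXCL14 were also called lower with both treatments than with vitamin D alone. The same 5 genes were called lower with IL-13 alone than in untreated cells as well, between -0.98 for DSG1 and -0.22 for SLC7A11 in the authors' deposited table.

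The promoters of CAPN14 and CISH are shown because they hold the spaced TTC and GAA pairs that STAT factors bind. The sequences are from RefSeq (GRCh38.p14) and run from 250 bases before to 50 bases after a RefSeq start site, on the minus strand, 5′ to 3′. Capitals mark TTC and GAA spaced by 4 bases, the spacing known for STAT6, in CAPN14 and by 3 bases, the spacing known for other STATs, in CISH. The first lies at chr2:31217466-31217765 and the second at chr3:50611725-50612024.
CAPN14: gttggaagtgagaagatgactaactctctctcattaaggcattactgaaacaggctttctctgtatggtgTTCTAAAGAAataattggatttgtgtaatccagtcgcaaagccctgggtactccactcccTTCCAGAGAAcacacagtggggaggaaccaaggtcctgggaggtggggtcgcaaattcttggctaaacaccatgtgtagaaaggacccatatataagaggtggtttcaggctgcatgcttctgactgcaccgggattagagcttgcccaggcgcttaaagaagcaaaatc
CISH: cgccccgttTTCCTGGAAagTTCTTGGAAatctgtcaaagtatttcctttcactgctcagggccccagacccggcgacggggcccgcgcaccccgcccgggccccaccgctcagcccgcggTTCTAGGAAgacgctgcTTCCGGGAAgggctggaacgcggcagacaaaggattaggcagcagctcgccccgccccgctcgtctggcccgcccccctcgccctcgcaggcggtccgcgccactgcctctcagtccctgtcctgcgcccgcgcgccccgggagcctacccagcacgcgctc
CAPN14 has 2 RefSeq start sites in the table, and the window of the other one holds 0 such pairs. The CAPN14 pairs begin at -180 and -120 bases from the start site. Of the CISH pairs, 4 in all, the outermost begin at -241 and -112. These promoters were picked for their pairs and do not stand for the genes high with IL-13. The windows of CCL26, SERPINB4, TNC, TNFAIP6 and RASL11B held 0 pairs of either spacing. FAM26E had 1 pair spaced by 4 bases. CD14 had 1 pair spaced by 3 bases, as did 1 window of TICRR, a gene that fell. Pairs spaced by 4 bases occur in 6.44% of all 35093 promoters of the table, and pairs spaced by 3 bases in 7.66%; the second spacing was added after the CISH sequence was seen. Both motifs read the same on either strand. Promoters were found for 9188 of the 11422 tested genes (80.4%). The 4-base spacing was present for 7.21% of higher genes and 6.41% of all tested genes, and the 3-base spacing for 8.51% and 8.08%. The check is void for lower genes and for genes changed at least 2-fold, of which under 80% had a promoter. The DR3 element of VDR was found in any promoter of 7 higher genes (0.366%) and of 28 of all tested genes (0.305%). Counted by promoter and not by gene, it was in 0.251% of all promoters of the table. A match of letters is not a binding site.

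Binding near these genes was read from the authors' peak lists of cells given 1 treatment, IL-13 for STAT6 and vitamin D for VDR, since the lists used here hold no STAT6 or VDR library of cells given both. Each list comes from 1 library, and its fold enrichment is the value of the authors' peak caller. CAPN14 had a STAT6 region at the start site used in the tables (chromosome 2, 31440418 to 31440654, hg19), with its summit at -81 bases from it and a fold enrichment of 4.20. CISH had a much stronger STAT6 region 10559 bases downstream of its start site, at 24.5 (chromosome 3, 50638015 to 50639748, hg19). The STAT6 summit nearest to the CISH start site lay 9647 bases downstream of it, outside the promoter window shown. CCL26 had a STAT6 region 17345 bases downstream of its start site, at 4.20. CAPN14 also had a VDR region, 20706 bases downstream of its start site, at 6.24, while CISH and CCL26 had none. CYP24A1 had a VDR region with its summit at -245 bases from its start site, at 23.9 (chromosome 20, 52790132 to 52791434, hg19), and CD14 had one 405 bases inside the gene, at 26.1. CYP24A1 also had a STAT6 region at -2884 bases, at 3.21, while CD14 had none. RPTN had a VDR region at -8882 bases, with an enrichment of 62.2, and SEMA6D one at -1257 bases, with 34.4. No STAT6 or VDR region lay within 10 kb of TNFAIP6, GCNT3, ADAMTS15, TNC, KRT1, DSG1 or ADH7. The same held for the fallen genes TICRR, FGFBP1, SDR9C7, SLC7A11, NRARP and CXCL14. Other genes that fell had regions. LY6D had STAT6 regions, the strongest at 5.19, and a VDR region at 4.08. WNT10A had a STAT6 region at 3.95. VDR regions lay in or near FILIP1L at 6.24, ENDOU at 4.51 and KRT10 at 3.99.

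Over all genes on assembled chromosomes, regions of either factor were more often found near genes that rose. A STAT6 region of the IL-13 library lay within 10 kb of the gene for 19.5% of 2324 higher genes (95% interval 17.9% to 21.2%), 214 of 2131 lower genes (8.80% to 11.4%) and 6.42% of 6838 genes not called (5.85% to 7.03%). Of the 213 genes at least 2-fold higher 32.9% had one (26.6% to 39.6%), and of the 162 at least 2-fold lower 8.02% (4.34% to 13.3%). In the untreated STAT6 library the shares were 0.258%, 0.610% and 0.614% for higher, lower and not called genes. A VDR region of the vitamin D library lay near 44.8% of higher genes (42.7% to 46.8%), 33.4% of lower genes (31.4% to 35.5%) and 24.5% of genes not called (23.5% to 25.5%). It lay near 58.2% of genes at least 2-fold higher (51.3% to 64.9%) and 27.2% of those at least 2-fold lower (20.5% to 34.7%). In the untreated VDR library the shares were 15.5%, 7.79% and 5.32% for higher, lower and not called genes. Regions of both factors lay near 20.7% of genes at least 2-fold higher, against 2.81% of genes not called. These intervals are exact binomial intervals over genes and cover at most counting error. They treat genes as independent, although neighbouring genes can share a region, so they may be too narrow.

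Gene length moved with these classes: the median span was 34.8 kb for higher, 24.3 kb for lower and 21.8 kb for not called genes, and its part in the shares near whole genes was not tested. With a window of 10 kb around the start site alone, which does not depend on gene length, 9.68% of higher, 4.36% of lower and 3.17% of not called genes had a STAT6 region, and 28.5%, 18.9% and 14.8% a VDR region. This window was added after the data had been seen.

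**Figure D3:**
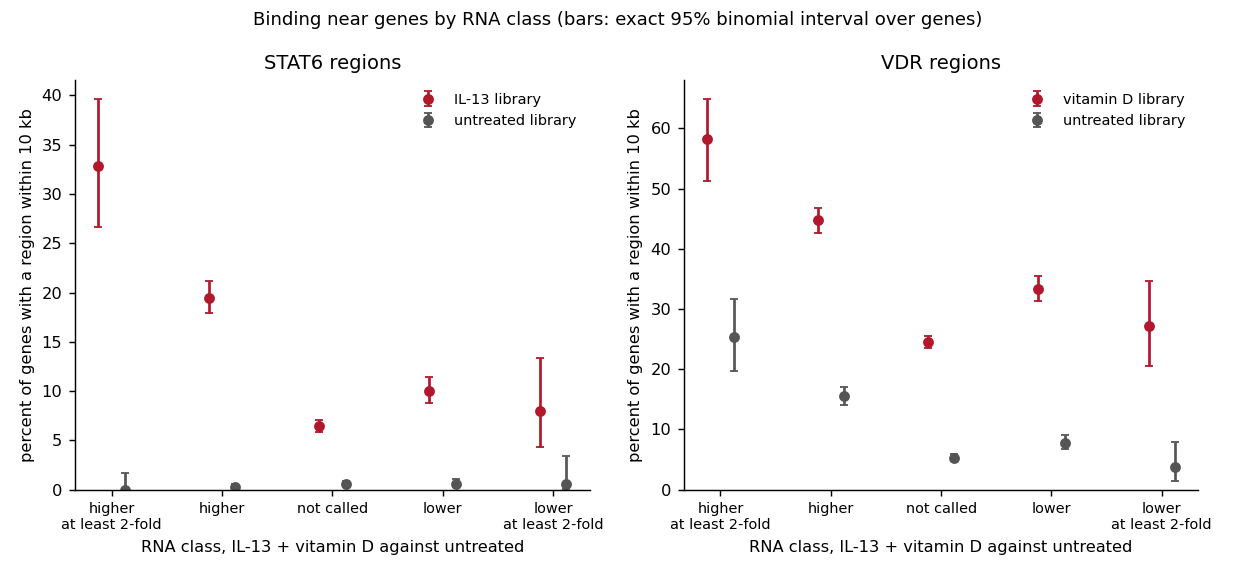
Percent of genes with a STAT6 region (left) or VDR region (right) within 10 kb, by RNA class of IL-13 plus vitamin D against untreated, in the treated library and in the untreated library of each factor. Bars are exact 95% binomial intervals over genes, and the treated libraries are highest at 32.9% for STAT6 and 58.2% for VDR, both for genes at least 2-fold higher.

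Histone marks were profiled in cells given both treatments and in untreated cells, with 1 library each. An H3K27ac region within 1 kb of the start site was listed for 91.3% of higher genes with both treatments and 92.6% in untreated cells, and for 84.9% and 89.5% of lower genes. H3K27ac marks active promoters and enhancers. Among genes at least 2-fold higher 2.82% had an H3K27ac region in the library of both treatments alone and 4.23% in the untreated library alone. Among genes at least 2-fold lower 0% had one in the library of both treatments alone and 14.8% in the untreated library alone; of all tested genes 0.106% and 2.20% did. The untreated list is the larger, with 91881 regions over 85.1 Mb, against 72629 regions over 52.7 Mb with both treatments, and its part in these shares was not tested. For H3K9ac, an acetylation mark of active promoters, the lists were of like size, with 52749 regions with both treatments and 49647 untreated. Among genes at least 2-fold higher 11.3% had an H3K9ac region with both treatments alone and 2.82% in untreated cells alone, and among genes at least 2-fold lower 4.32% and 6.17%. Of all tested genes 2.05% and 1.95% did. H3K4me3, the mark of start sites, was listed for 70.9% of genes at least 2-fold higher with both treatments and 70.0% in untreated cells, against 90.9% of all tested genes in each library. In 1 library alone it was listed for 0.939% of genes at least 2-fold higher with both treatments and 0% in untreated cells. Of all tested genes 0.213% and 0.239% were so listed. With the peaks at or above the median -log10 q of each list, the shares of genes at least 2-fold higher with an H3K4me3 region were 54.0% and 46.5%. Then 8.45% had one in the library of both treatments alone and 0.939% in the untreated library alone, against 1.12% and 0.611% of all tested genes.

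Many genes of squamous epithelium were lower, keratins of basal cells included. Of 23 keratin genes 14 were lower and 1 higher, with a median of -0.19 in the authors' deposited table. The basal keratins were abundant in both groups: KRT5 stood at 9265 RPKM with both treatments and 10444 in untreated cells (-0.17 in the authors' deposited table). KRT14 was at 6196 RPKM with both treatments and 7429.9 in untreated cells (-0.25 in the authors' deposited table). KRT17 was at 12271 RPKM with both treatments and 14929.7 in untreated cells (-0.27 in the authors' deposited table). The most abundant keratin, KRT6A, at 15412 RPKM with both treatments and 16009 in untreated cells, did not pass (-0.05, adjusted p = 0.526 in the authors' deposited table). KRT4, a keratin of suprabasal esophageal cells, was the exception, at 293 RPKM with both treatments, 63.8 with IL-13 alone, 242 with vitamin D alone and 64.3 in untreated cells (2.18 in the authors' deposited table), with both vitamin D groups high. Keratin genes have close paralogs, so reads may be shared among KRT6A, KRT14 and KRT17 and their relatives. KRT1, KRT10 and KRT4, each a keratin of suprabasal layers, thus changed in different directions.

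Cornified envelope proteins are crosslinked under the membrane of cells at the surface. Of 17 measured envelope genes of the chromosome 1 cluster 12 were lower and 3 higher, with a median of -0.81 in the authors' deposited table. SPRR1A, a small proline-rich protein gene, was at 500.02 RPKM with both treatments, 710.0 with IL-13 alone, 932 with vitamin D alone and 1256 in untreated cells (-1.31 in the authors' deposited table). SPRR3 was at 535 RPKM with both treatments, 755 with IL-13 alone, 830.0 with vitamin D alone and 1107 in untreated cells (-1.04 in the authors' deposited table). SPRR1B was at 1673 RPKM with both treatments, 1864 with IL-13 alone, 2467 with vitamin D alone and 2577 in untreated cells (-0.61 in the authors' deposited table). IVL, which encodes involucrin, was at 21.5 RPKM with both treatments, 12.7 with IL-13 alone, 92.6 with vitamin D alone and 50.3 in untreated cells (-1.20 in the authors' deposited table). Its level was thus lowest with IL-13 alone and highest with vitamin D alone. RPTN was the large exception in this cluster. Of 14 S100 genes 11 were lower and 1 higher. S100A8 was at 2207 RPKM with both treatments and 3504 in untreated cells (-0.66 in the authors' deposited table). S100A9, with which it forms calprotectin, was at 3911 RPKM with both treatments and 5429 in untreated cells (-0.46 in the authors' deposited table). S100A7 (psoriasin) was the higher member, at 35.4 RPKM with both treatments and 25.6 in untreated cells (0.46 in the authors' deposited table).

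Envelope enzymes and scaffold genes were also mostly lower. Of 17 transglutaminase and scaffold genes 11 were lower and 3 higher. TGM1, the main crosslinking enzyme of the envelope, was at 84.5 RPKM with both treatments, 132 with IL-13 alone, 192 with vitamin D alone and 262 in untreated cells (-1.61 in the authors' deposited table). TGM5 was at 0.98 RPKM with both treatments, 1.34 with IL-13 alone, 3.37 with vitamin D alone and 3.54 in untreated cells (-1.80 in the authors' deposited table). CNFN, the cornifelin gene, was at 77.8 RPKM with both treatments, 79.6 with IL-13 alone, 149 with vitamin D alone and 159.6 in untreated cells (-1.01 in the authors' deposited table). TGM2, a broadly expressed transglutaminase, moved the other way, at 15 RPKM with both treatments, 14.6 with IL-13 alone, 2.77 with vitamin D alone and 6.56 in untreated cells (1.20 in the authors' deposited table). Of 42 transcription factors of squamous epithelium 23 were lower and 11 higher. OVOL2 was at 3 RPKM with both treatments, 5.2 with IL-13 alone, 5.51 with vitamin D alone and 9.18 in untreated cells (-1.57 in the authors' deposited table). FOXN1 was at 7.39 RPKM with both treatments, 12.9 with IL-13 alone, 9.55 with vitamin D alone and 14.1 in untreated cells (-0.91 in the authors' deposited table). ZBTB7C was at 0.168 RPKM with both treatments, 0.477 with IL-13 alone, 0.41 with vitamin D alone and 1.21 in untreated cells (-2.59 in the authors' deposited table). GATA6, at 2.92 RPKM with both treatments and 1.46 in untreated cells, was among the higher factors (0.97 in the authors' deposited table).

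**Figure D4:**
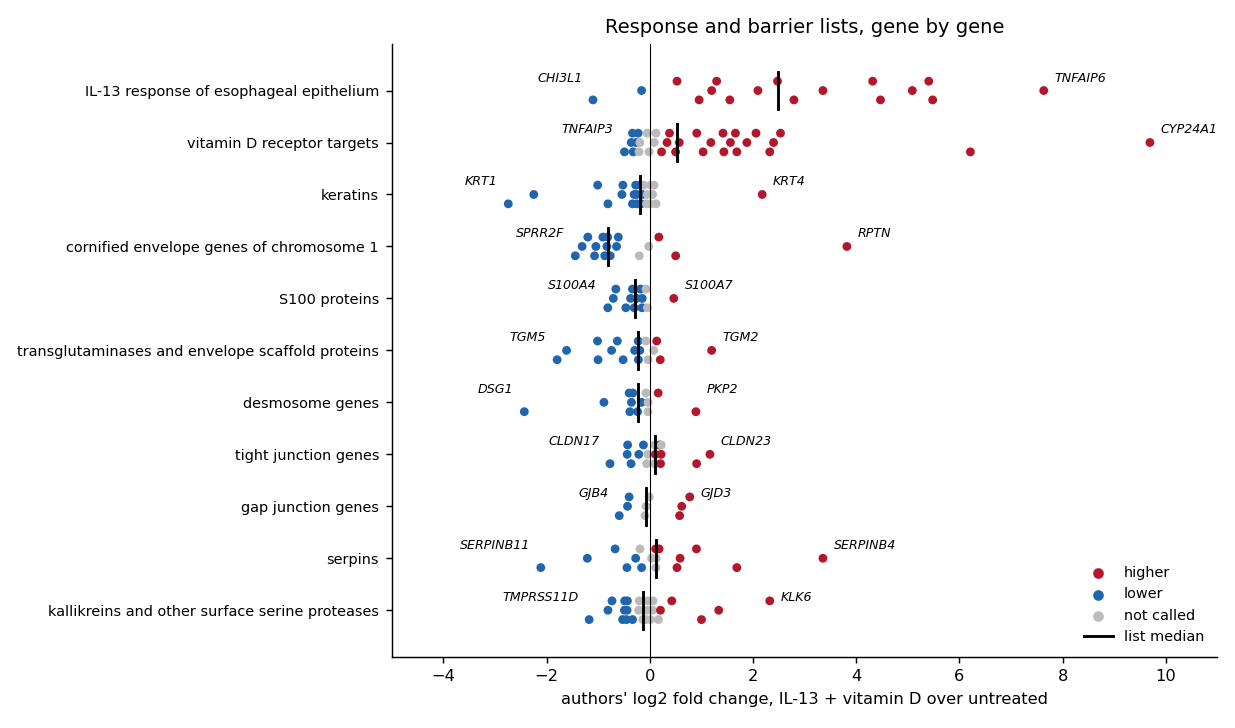
Authors' log2 fold change of IL-13 plus vitamin D over untreated for each measured gene of 11 lists, with the list median as a black line and the lowest and highest gene named. The IL-13 response list has a median of 2.47 and the cornified envelope list one of -0.81, with RPTN at 3.82 as its exception.

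Of 13 desmosome genes 8 were lower and 2 higher, against 6 lower and 6 higher of 17 tight junction genes; whether the lists differ was not tested. DSC2, which encodes desmocollin 2, was at 115 RPKM with both treatments, 179 with IL-13 alone, 139 with vitamin D alone and 213 in untreated cells (-0.89 in the authors' deposited table). DSP, the desmoplakin gene, was at 798 RPKM with both treatments and 1042 in untreated cells (-0.39 in the authors' deposited table). PKP2, the plakophilin 2 gene, was higher, at 17 RPKM with both treatments, 17.2 with IL-13 alone, 11 with vitamin D alone and 9.11 in untreated cells (0.89 in the authors' deposited table). Among claudins of the tight junction CLDN7 was higher, at 61.6 RPKM with both treatments, 29.3 with IL-13 alone, 89.7 with vitamin D alone and 34.1 in untreated cells (0.91 in the authors' deposited table). CLDN1 was lower, at 83.9 RPKM with both treatments, 98.3 with IL-13 alone, 61.9 with vitamin D alone and 91.7 in untreated cells (-0.12 in the authors' deposited table). Of 15 cadherin and catenin genes 6 were higher and 3 lower. CTNNB1, which encodes beta-catenin, was at 157 RPKM with both treatments and 104 in untreated cells (0.60 in the authors' deposited table). CDH1, the E-cadherin gene, was at 154 RPKM with both treatments and 155 in untreated cells and did not pass (adjusted p = 0.955 in the authors' deposited table). Of 9 gap junction genes 3 were higher and 3 lower. GJB2, the connexin 26 gene, was at 1761 RPKM with both treatments, 1535 with IL-13 alone, 1126 with vitamin D alone and 1149 in untreated cells (0.62 in the authors' deposited table). GJB6, the connexin 30 gene, was at 163 RPKM with both treatments, 131 with IL-13 alone, 109.9 with vitamin D alone and 109.5 in untreated cells (0.58 in the authors' deposited table). Of 33 genes of basement membrane adhesion 9 were higher (27.3%) and 8 lower (24.2%), near the shares over all tested genes. ITGB6, an epithelial integrin gene, was at 40.3 RPKM with both treatments, 20.8 with IL-13 alone, 46.8 with vitamin D alone and 23.3 in untreated cells (0.78 in the authors' deposited table).

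Of 27 kallikrein and surface serine protease genes 5 were higher and 10 lower, with a median of -0.13 in the authors' deposited table. KLK7 and KLK6, given next, were among the higher and do not stand for the list. KLK7, which cleaves desmosomal proteins in skin, was at 355 RPKM with both treatments, 199 with IL-13 alone, 211 with vitamin D alone and 140.0 in untreated cells (1.34 in the authors' deposited table). KLK6 was at 17.6 RPKM with both treatments, 2.01 with IL-13 alone, 31.1 with vitamin D alone and 3.4 in untreated cells (2.33 in the authors' deposited table). Of 17 serpin genes 7 were higher and 6 lower. SERPINB1, an inhibitor of neutrophil proteases, was at 207 RPKM with both treatments, 34.3 with IL-13 alone, 407 with vitamin D alone and 64 in untreated cells (1.69 in the authors' deposited table), lower with IL-13 alone than in untreated cells and highest with vitamin D alone. SPINK7, an esophageal serine protease inhibitor gene, was at 13.1 RPKM with both treatments, 19.8 with IL-13 alone, 22.8 with vitamin D alone and 35.2 in untreated cells (-1.39 in the authors' deposited table). The calpain and cathepsin list had 6 higher and 5 lower of 21, near the shares over all tested genes, with CAPN5 at 1.28 RPKM with both treatments, 1.46 with IL-13 alone, 2.55 with vitamin D alone and 3 in untreated cells (-1.18 in the authors' deposited table), opposite to CAPN14. Metalloproteinases and their inhibitors had 6 higher (28.6%) and 4 lower (19.0%) of 21, also near those shares. For hyaluronan, a matrix sugar, 3 of 7 genes were higher: TNFAIP6, the synthase gene HAS3 at 21.8 RPKM with both treatments, 13.5 with IL-13 alone, 9.87 with vitamin D alone and 5.83 in untreated cells (1.94) and the receptor gene CD44 at 134 RPKM with both treatments, 143 with IL-13 alone, 82.9 with vitamin D alone and 96.2 in untreated cells (0.48 in the authors' deposited table).

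Of 10 measured chemokine genes 6 were lower and 2 higher, with a median of -0.61 in the authors' deposited table. IL8, the neutrophil chemokine gene, was at 5.07 RPKM with both treatments, 9.31 with IL-13 alone, 6.94 with vitamin D alone and 11.3 in untreated cells (-1.12 in the authors' deposited table). CCL20 was at 0.488 RPKM with both treatments, 0.64 with IL-13 alone, 0.85 with vitamin D alone and 1.46 in untreated cells (-1.24 in the authors' deposited table). In the interleukin-1 family 5 of 13 were higher and 6 lower. IL1RL1, the receptor for IL-33, was at 4.27 RPKM with both treatments, 0.221 with IL-13 alone, 5.51 with vitamin D alone and 0.192 in untreated cells (4.10 in the authors' deposited table). IL1B was at 160.1 RPKM with both treatments, 64.9 with IL-13 alone, 171 with vitamin D alone and 89.8 in untreated cells (0.83 in the authors' deposited table). Both were high in the groups given vitamin D. Of 20 innate sensor and antimicrobial genes 6 were higher and 10 lower. TLR5, the flagellin receptor gene, was at 0.32 RPKM with both treatments, 0.895 with IL-13 alone, 0.468 with vitamin D alone and 1.32 in untreated cells (-1.92), opposite to CD14 in the authors' deposited table.

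Of 60 interferon response genes 31 were lower and 5 higher, with a median of -0.19 in the authors' deposited table. IFIT1, an antiviral RNA-binding protein gene, was at 11.4 RPKM with both treatments, 18 with IL-13 alone, 16 with vitamin D alone and 21.6 in untreated cells (-0.91 in the authors' deposited table). EPSTI1 was at 5.77 RPKM with both treatments, 9.92 with IL-13 alone, 6.38 with vitamin D alone and 9.97 in untreated cells (-0.77 in the authors' deposited table). B2M, a component of antigen presentation, was not called, at 909 RPKM with both treatments and 893 in untreated cells. For NF-kappaB factors, regulators and targets, 12 of 30 were lower and 6 higher. BIRC3, an inhibitor of apoptosis, was at 1.38 RPKM with both treatments, 3.14 with IL-13 alone, 1.6 with vitamin D alone and 4.13 in untreated cells (-1.53 in the authors' deposited table). NFKBIA, the inhibitor of NF-kappaB, was at 121 RPKM with both treatments, 82.8 with IL-13 alone, 133 with vitamin D alone and 87.5 in untreated cells (0.47 in the authors' deposited table). Other cytokines and their receptors were split, with 9 higher and 11 lower of 30.

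Lipid and retinoid genes of the barrier fell in part. Of 20 retinoid metabolism genes 10 were lower and 6 higher. FABP5, a fatty acid and retinoic acid carrier, was at 238 RPKM with both treatments, 393 with IL-13 alone, 557 with vitamin D alone and 698 in untreated cells (-1.53 in the authors' deposited table). RDH16, a retinol dehydrogenase gene, was at 0.675 RPKM with both treatments, 0.991 with IL-13 alone, 0.996 with vitamin D alone and 3 in untreated cells (-1.997 in the authors' deposited table). Of 26 lipoxygenase, prostaglandin and phospholipase genes 13 were lower and 6 higher. ALOX12B, an epidermal lipoxygenase of the barrier, was at 9.75 RPKM with both treatments, 12.3 with IL-13 alone, 20.2 with vitamin D alone and 28.5 in untreated cells (-1.52 in the authors' deposited table). LTA4H, the enzyme of leukotriene B4 synthesis, was at 189.9 RPKM with both treatments, 187 with IL-13 alone, 73.1 with vitamin D alone and 76.4 in untreated cells (1.31 in the authors' deposited table). Of 33 ceramide and barrier lipid genes 18 were lower and 4 higher. ABCA12, which loads lipid into lamellar bodies, was at 8.39 RPKM with both treatments, 10.6 with IL-13 alone, 11.6 with vitamin D alone and 16.5 in untreated cells (-0.97 in the authors' deposited table). Of 41 cholesterol and fatty acid genes 21 were lower and 5 higher. The sterol exporters went apart, with ABCG1 at 5.15 RPKM with both treatments, 11.3 with IL-13 alone, 8.4 with vitamin D alone and 16.2 in untreated cells (-1.64 in the authors' deposited table). ABCA1 was at 5.77 RPKM with both treatments, 3.05 with IL-13 alone, 7.75 with vitamin D alone and 3.5 in untreated cells (0.72 in the authors' deposited table). Steroid and sulfate genes were even, 7 higher and 7 lower of 25. HSD3B1, a steroid dehydrogenase gene, was at 2.37 RPKM with both treatments, 1.34 with IL-13 alone, 0.0966 with vitamin D alone and 0.0216 in untreated cells (4.47 in the authors' deposited table). SULT1E1, the estrogen sulfotransferase gene, was at 0.775 RPKM with both treatments, 4.49 with IL-13 alone, 0.778 with vitamin D alone and 3.26 in untreated cells (-1.93 in the authors' deposited table).

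In growth signalling, ligands and receptors of the EGF family were mostly lower, 9 of 14, with 2 higher. The higher ones were the ligand genes HBEGF, which was at 21.9 RPKM with both treatments, 5.64 with IL-13 alone, 12 with vitamin D alone and 8.05 in untreated cells (1.44 in the authors' deposited table), and AREG. AREG was at 5.65 RPKM with both treatments, 2.29 with IL-13 alone, 6.59 with vitamin D alone and 2.53 in untreated cells (1.10 in the authors' deposited table). ERBB2, a receptor of the family, was at 31.3 RPKM with both treatments, 32 with IL-13 alone, 50.3 with vitamin D alone and 52 in untreated cells (-0.72 in the authors' deposited table). Of 39 Notch and Wnt genes 21 were lower and 6 higher. NRARP, a Notch target and feedback inhibitor, was at 2.9 RPKM with both treatments, 7.33 with IL-13 alone, 4.35 with vitamin D alone and 11.6 in untreated cells (-1.96 in the authors' deposited table). SFRP1, a secreted Wnt antagonist, was at 36.1 RPKM with both treatments, 36.5 with IL-13 alone, 11.2 with vitamin D alone and 12.9 in untreated cells (1.48 in the authors' deposited table). TGF-beta and BMP genes were split, 10 higher and 9 lower of 33. BMP2 was at 12.7 RPKM with both treatments, 4.73 with IL-13 alone, 13.9 with vitamin D alone and 4.74 in untreated cells (1.41 in the authors' deposited table). TGFB2 was at 10.2 RPKM with both treatments, 4.32 with IL-13 alone, 9.71 with vitamin D alone and 4.42 in untreated cells (1.20 in the authors' deposited table). The signal transducer SMAD3 was at 5.26 RPKM with both treatments, 6.12 with IL-13 alone, 11.5 with vitamin D alone and 10.9 in untreated cells (-1.04 in the authors' deposited table). The IGF and other growth factor list had 14 lower and 6 higher of 31. Of 25 AP-1 and immediate early genes 9 were higher and 9 lower. FOS was at 7.04 RPKM with both treatments, 0.913 with IL-13 alone, 13.8 with vitamin D alone and 1.24 in untreated cells (2.41 in the authors' deposited table). MAP kinase phosphatase and Sprouty genes had 5 higher and 4 lower of 14, with DUSP10 at 59.1 RPKM with both treatments, 23.3 with IL-13 alone, 69.1 with vitamin D alone and 26 in untreated cells (1.18 in the authors' deposited table).

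Of 37 amino acid stress and unfolded protein genes 22 were lower and 4 higher. CHAC1, which degrades glutathione, was at 21.2 RPKM with both treatments, 46.5 with IL-13 alone, 26.7 with vitamin D alone and 45.4 in untreated cells (-1.07 in the authors' deposited table). TRIB3 was at 27.8 RPKM with both treatments, 50.3 with IL-13 alone, 36.5 with vitamin D alone and 61.2 in untreated cells (-1.12 in the authors' deposited table). DDIT3, the stress factor CHOP, was at 19.6 RPKM with both treatments, 39 with IL-13 alone, 20.4 with vitamin D alone and 38.3 in untreated cells (-0.94 in the authors' deposited table). ATF4, the factor upstream of them, was at 267 RPKM with both treatments, 329 with IL-13 alone, 276 with vitamin D alone and 332 in untreated cells (-0.31 in the authors' deposited table). These 4 genes were low in both groups given vitamin D. Of 35 NRF2 and glutathione genes 14 were higher and 8 lower. AKR1C1, an aldo-keto reductase gene, was at 31.7 RPKM with both treatments, 9.03 with IL-13 alone, 26.8 with vitamin D alone and 14.1 in untreated cells (1.16 in the authors' deposited table), with near-identical relatives that may share its reads. Cell cycle genes had 15 lower and 3 higher of 36. CDKN2B, a cyclin-dependent kinase inhibitor gene, was at 16.8 RPKM with both treatments, 29.1 with IL-13 alone, 25.9 with vitamin D alone and 42.8 in untreated cells (-1.34 in the authors' deposited table). CDC25B, a phosphatase that drives mitosis, was at 5.19 RPKM with both treatments, 10.2 with IL-13 alone, 7.41 with vitamin D alone and 13.9 in untreated cells (-1.40 in the authors' deposited table). Of 27 p53 targets 11 were lower and 4 higher.

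Some genes of energy metabolism rose by small amounts, and no ribosomal protein gene was called. Of 45 oxidative phosphorylation genes 18 were higher and 0 lower, with a median of 0.09 in the authors' deposited table. UQCRC2, a subunit of respiratory complex III, was at 115 RPKM with both treatments, 90.6 with IL-13 alone, 82.4 with vitamin D alone and 70.8 in untreated cells (0.71 in the authors' deposited table). Hypoxia and glycolysis genes had 12 higher and 8 lower of 35. HK1, a hexokinase gene, was at 136 RPKM with both treatments, 101 with IL-13 alone, 93.3 with vitamin D alone and 65 in untreated cells (1.07 in the authors' deposited table). TXNIP, which limits glucose uptake, was at 236 RPKM with both treatments, 385 with IL-13 alone, 255 with vitamin D alone and 408 in untreated cells (-0.78 in the authors' deposited table). None of 73 cytosolic ribosomal protein genes passed the authors' test, and their median was -0.01 in the authors' deposited table.

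**Figure D5:**
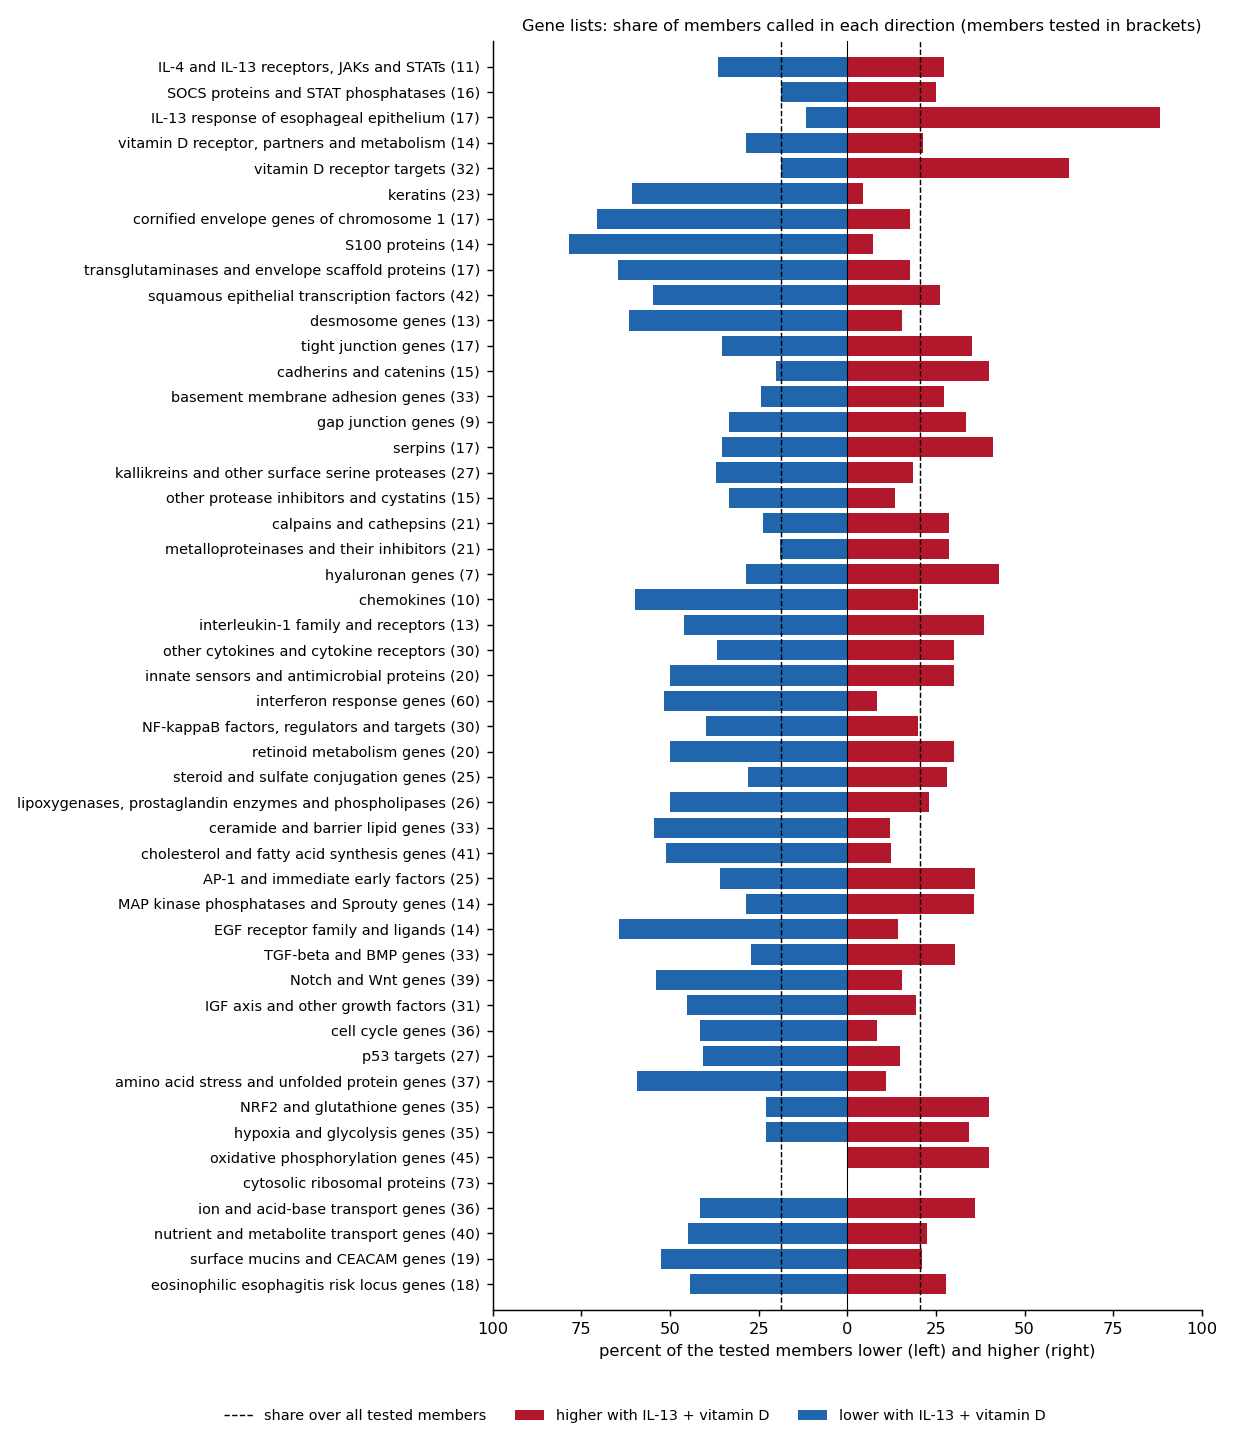
Percent of the tested genes of each of 49 lists that were lower (left, blue) and higher (right, red) with IL-13 plus vitamin D than in untreated cells, with the number tested in brackets. Dashed lines mark 20.5% higher and 18.8% lower over all tested genes; IL-13 response and VDR target lists extend furthest to the right and S100, cornified envelope, transglutaminase and EGF family lists furthest to the left.

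Transport genes held some of the larger rises in level, although more of them were called lower than higher. Of 36 ion and acid-base transport genes 13 were higher and 15 lower. CA2, carbonic anhydrase 2, was at 586 RPKM with both treatments, 596 with IL-13 alone, 241 with vitamin D alone and 178 in untreated cells (1.72 in the authors' deposited table). ANO1, a calcium-activated chloride channel gene, was at 41 RPKM with both treatments, 53.7 with IL-13 alone, 4.53 with vitamin D alone and 7.31 in untreated cells (2.47 in the authors' deposited table). SLC26A2, a sulfate transporter gene, was at 8.72 RPKM with both treatments, 17.4 with IL-13 alone, 1.86 with vitamin D alone and 2.7 in untreated cells (1.67 in the authors' deposited table). All 3 were high in the groups given IL-13. CLCA2, of the same list, was among the lower, at 210 RPKM with both treatments and 243 in untreated cells (-0.21 in the authors' deposited table). Of 40 nutrient transport genes 18 were lower and 9 higher, with the zinc transporter gene SLC39A8 at 11 RPKM with both treatments, 5.32 with IL-13 alone, 5.25 with vitamin D alone and 2.84 in untreated cells (1.96 in the authors' deposited table). Surface mucin and CEACAM genes had 10 lower and 4 higher of 19. Of 18 genes at or near eosinophilic esophagitis risk loci 5 were higher and 8 lower. CAPN14 and CCL26 were among the higher, and DSG1 and SPINK7 among the lower.

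By absolute level the order differed from that by fold. The largest rises in RPKM among called genes included GJB2, CAPN14, CYP24A1 and CA2 together with cytoskeletal genes: ACTG1 was at 1324 RPKM with both treatments, 943 with IL-13 alone, 1499 with vitamin D alone and 1001 in untreated cells (0.41 in the authors' deposited table). ACTB was at 2028 RPKM with both treatments, 1639 with IL-13 alone, 2236 with vitamin D alone and 1781 in untreated cells (0.19 in the authors' deposited table). TPM4, a tropomyosin gene, was at 635 RPKM with both treatments, 336 with IL-13 alone, 825 with vitamin D alone and 397 in untreated cells (0.68 in the authors' deposited table). ACTB and ACTG1 are near-identical and may share reads. ACTG1, ACTB and TPM4 were highest with vitamin D alone and lowest with IL-13 alone. DDIT4, an inhibitor of mTOR signalling, was at 765 RPKM with both treatments, 506 with IL-13 alone, 763 with vitamin D alone and 513 in untreated cells (0.58 in the authors' deposited table). By RPKM the leading falls included KRT17, S100A9, S100A8, KRT14, KRT5 and the heat shock gene HSPB1, at 1414 RPKM with both treatments, 1854 with IL-13 alone, 1889 with vitamin D alone and 2317 in untreated cells (-0.70 in the authors' deposited table).

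VWF, the gene of von Willebrand factor and on the endothelial marker list, was higher with both treatments, at 3.15 RPKM with both treatments, 1.92 with IL-13 alone, 1.18 with vitamin D alone and 0.514 in untreated cells (2.56 in the authors' deposited table). The other 8 endothelial markers were below 1 RPKM, and PECAM1 stood at 0.00217 RPKM with both treatments and 0.000961 in untreated cells; their part in the result was not tested. COL1A1, a fibroblast marker, was at 5.84 RPKM with both treatments, 9.84 with IL-13 alone, 9.64 with vitamin D alone and 15.2 in untreated cells (-1.35 in the authors' deposited table), while COL3A1 and COL1A2 were under 0.04 RPKM. The limit of 1 RPKM left CRTC1 just inside, at 1.00076 with both treatments and 0.796 untreated, and MORN1, at 1.00138 and 0.864. It left KHDRBS3 just outside, at 0.99989 and 0.699, and C19orf44, at 0.932 and 0.999.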

How the data were processed

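RNA was measured in 12 samples of EPC2 cells, 3 for each of 4 treatments, and peak lists of 10 ChIP libraries were used. The submitters' processing notes name GRCh37 and hg19 as builds and, as tools, MACS2, Bowtie, SAMtools, STAR and Trim Galore, with no roles or settings. Per the file headers, the authors' tables hold a group's RPKM as 1 value, log2 fold changes, p-values and adjusted p-values; no source used here names the test. An adjusted p of 1 was read as not tested. The table named for IL-13 against both holds vitamin D against both, since its RPKM column equals that of vitamin D for all genes. In the authors' peak lists the pileup is a signal, fold enrichment is a ratio and significance is given as -log10 p and -log10 q, per the file headers. Mitochondrial rows were dropped.

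The analysis used Python 3.11.15, pandas 2.3.3, numpy 2.4.6, scipy 1.17.1 and matplotlib 3.10.9. Genes at 1 RPKM or more in either group were kept, with calls at an adjusted p of 0.05 from the authors' adjustment over all genes. Binding was counted within 10 kb of a gene and histone regions within 1 kb of a start site, leaving out 129 genes on unplaced or alternative sequences. Counting steps were tested on simulated data. Named genes were the 15 largest fold changes per direction at 5 RPKM or more, the 10 largest RPKM differences, the 4 largest changes and 3 most abundant genes of each list, pathway components, genes at the 1 RPKM limit and genes whose fold change disagreed with RPKM. The genes and the 49 lists were chosen with earlier results of these data known. Among the gene symbols 28 read as dates. The text gives values of all 4 treatments beside the pair compared. The 6 single-treatment histone lists were not used.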

Additional observations from a re-analysis of the deposited data

How the results depend on the processing

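Counts of higher and lower genes stayed within 1.5 times the reported ones under every alternative run: no filter, a mean of 1 RPKM, 5 RPKM in either group, an adjusted p of 0.01 and Benjamini-Hochberg over these genes alone. The higher count then lay between 1832 and 2549 and the lower between 1540 and 2514. With no filter 23533 genes were measured. The number of genes at least 2-fold changed depended on low genes: with 5 RPKM in either group it was 132 higher and 81 lower, and with sizes from RPKM with a pseudocount of 1 it was 140 higher and 91 lower. Shares with a STAT6 region for higher, lower and not called genes were 33.4%, 19.1% and 15.3% within 50 kb, 12.8%, 4.93% and 3.50% with peaks at or above the median -log10 q of their list, and 9.68%, 4.36% and 3.17% around the start site alone. Shares with a VDR region were 63.8%, 56.2% and 47.7%, 30.1%, 18.6% and 13.6%, and 28.5%, 18.9% and 14.8% in the same order. The order of the 3 classes was the same each time. Of 36 histone shares 33 moved past their interval with peaks at or above the median -log10 q. For genes at least 2-fold lower the share with H3K9ac in the untreated library alone was then 12.3%, against 6.17% as reported, and for genes at least 2-fold higher 1.41%, against 2.82%. Over all tested genes the H3K9ac shares in 1 library alone were then 4.27% with both treatments and 5.21% untreated. No called gene that was named changed sign. Of 50 list medians, 3 changed sign in some setting; the interleukin-1 family had a median of 0.13 over genes at a mean of 5 RPKM or more, against -0.26 as reported. No paired analysis was possible because the tables hold 1 value per group, and for the same reason no replicate could be left out.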

Other observations

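Below 1 RPKM in both groups, 576 further genes were called by the authors' test. In 174 genes the 1 RPKM limit was reached with both treatments only and in 226 in untreated cells only. An adjusted p listed as 0 stood beside 27 genes in the authors' deposited table. MIR711 was the 1 gene at this level that was not tested.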
